A study of Mus musculus with 6 samples.

Results

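The 39 genes described here encode the proteins that bring pyruvate into mitochondria, the enzymes of the tricarboxylic acid (TCA) cycle, and the routes that drain the cycle or refill it. They were listed by gene symbol, with earlier results of these data known, and all 39 were found among the 54532 genes of the deposited tables. By step, 11 serve pyruvate entry, 20 are cycle enzymes or their cytosolic counterparts, 2 serve citrate export, 5 serve glutamine entry and malate-aspartate exchange, and 1 makes itaconate.

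RNA levels were measured in macrophages grown from mouse bone marrow, in 3 libraries from wild-type (WT) cells and 3 libraries labelled 4-1BBL KO, from mice deficient in 4-1BBL, a TNF family ligand encoded by Tnfsf9. The cells of both groups carry v-raf and v-myc, delivered by retrovirus to immortalise them, and all were kept with 10 ng/ml IL-4 over 24 hours in a high-glucose medium that held pyruvate and glutamine. No library without IL-4 was analysed here, so a response to IL-4 was not measured. The labels do not say how many immortalised lines were used, which part of Tnfsf9 is missing, or whether the libraries of a group are separate cultures. The p-values thus reflect no more than the scatter among these 6 libraries, possibly technical.

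Tnfsf9 transcript measured 14.6, 10.4 and 12.05 FPKM (fragments per kilobase of exon and per M, or mega, of assigned fragments) in the WT libraries, in replicate order as throughout, against 10.7, 10.7 and 11.4 FPKM in the KO libraries. The groups overlapped (exact two-sided permutation p = 0.4), and since the missing part is not stated the transcript does not check the label, so the second group is called KO-labelled. Depth recovered from the FPKM steps was 19.1 to 26.4 M fragments per library. Of 10 macrophage markers, 9 reached 1 FPKM in a WT library and 10 in a KO-labelled library. Mertk, a receptor for engulfing dead cells, was at most 0.0216 FPKM in a WT library and at 4.17, 4.42 and 4.13 FPKM in the KO-labelled ones. The summed marker level was 2302 to 2353 FPKM in WT and 1361 to 1410 FPKM in the KO-labelled libraries. The macrophage markers did not move together: Lyz2 (1207 to 484 FPKM), Cd68, Csf1r and Cd14 fell, whereas Adgre1 (11.8 to 268 FPKM), Fcgr1, Ptprc and Mertk rose. The 7 osteoclast markers summed to 127 to 138 FPKM in WT and 82.5 to 85.6 FPKM in the KO-labelled libraries. Of these only Ctsk rose, from 69.5 to 80.5 FPKM. Acp5 fell from 50.8 to 2.79 FPKM, Dcstamp from 6.75 to 0.0901 FPKM and Mmp9 from 4.60 to 0.524 FPKM. Ocstamp and Oscar, under 1 FPKM in every library, were also lower in the KO-labelled ones, and Calcr was at most 0.0230 FPKM. In contrast, 8 fibroblast markers summed to at most 0.150 FPKM in any library. Dendritic cell and mast cell markers summed to at most 0.315 and 0.216 FPKM. The T cell marker Lck reached 2.01 FPKM in WT and 0.902 FPKM in the KO-labelled libraries. The B cell marker Cd79b reached 0.425 and 1.77 FPKM, and the neutrophil marker S100a8 0.0675 and 1.24 FPKM, in the same order. The part of these marker differences in the results below was not tested.

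Pyruvate enters mitochondria through a carrier made of MPC1 and MPC2. The pyruvate dehydrogenase complex then converts it to acetyl-CoA, and the complex is switched off by kinases (PDK) and on by phosphatases (PDP). Acetyl-CoA joins oxaloacetate to make citrate, which the cycle oxidises step by step while it passes electrons to the respiratory chain. In macrophages the cycle also supplies signals and building blocks: citrate leaves for lipid synthesis, aconitate is turned into itaconate by ACOD1, and glutamine refills the cycle as oxoglutarate. IL-4 activated macrophages are known for an intact cycle, and inflammatory ones for a cycle interrupted at isocitrate and at succinate.

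Most of the genes were moderately lower in KO-labelled cells. Of 38 that could be tested, 23 fell (60.5%), 6 rose (15.8%) and 9 were not called at 0.05 (limma, p adjusted by Benjamini-Hochberg over all genes). In the same fit of 10843 genes, 30.2% fell and 30.6% rose (60.8% in all). After rescaling to a common sum, as transcript shares (TPM), 12936 genes averaged at least 1 and were tested, of which 2916 (22.5%) fell and 4449 (34.4%) rose, against 3273 and 3321 of 10843. Their median log2 fold change was 0.11, against 0.01. Over the 10843 genes of the first fit alone, the rescaled values gave a median of 0.10, with 2619 lower and 3931 higher. The median of the listed genes was -0.27 on the log2(FPKM + 1) scale. It was -0.22 after rescaling to TPM, where 19 of the 39 fell and 7 rose. After quantile normalization it was -0.16, with 19 of the 38 lower and 7 higher, against a median of -0.01 over all tested genes. None of the 38 changed by 2-fold on the log2(FPKM + 1) scale, in contrast to 1465 of all tested genes. Their median absolute change of 0.33 was near the 0.32 of all tested genes. WT and KO-labelled values did not overlap for 23 lower and 7 higher genes of the 38, against 33.4% and 34.1% of all tested genes. In bulk RNA, fewer cells that express a gene and less RNA per cell cannot be told apart.

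**Figure D1:**
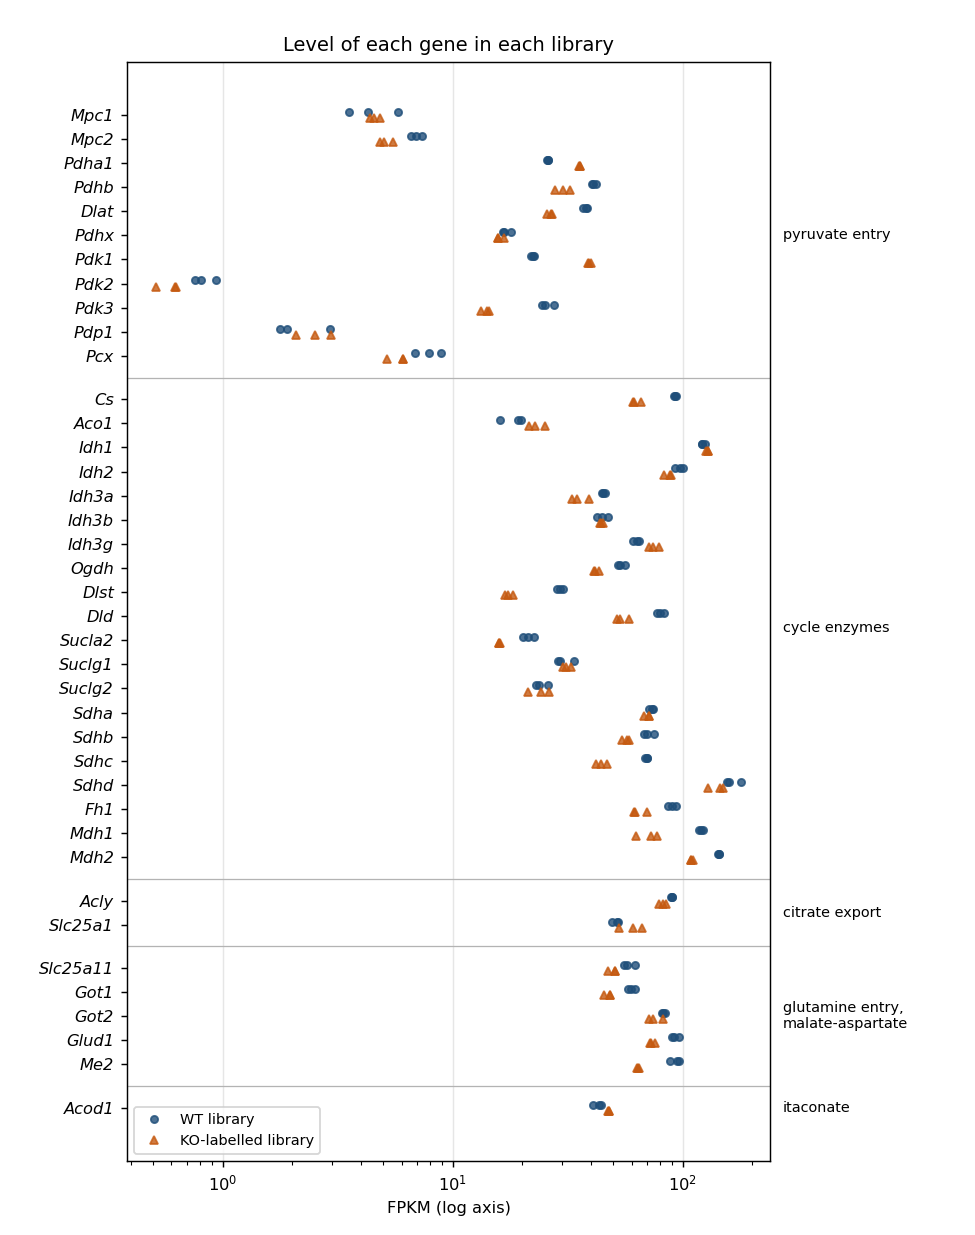
FPKM of the 39 genes in each library, on a log axis, with WT libraries as blue circles and KO-labelled libraries as orange triangles, grouped by step. Most genes lie between 10 and 165 FPKM, Pdk2 is lowest, and the largest gaps between groups are at Pdk1, Pdk3, Mdh1 and Dlst.

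The levels covered a wide range. In WT the lowest was Pdk2 at 0.835 FPKM and the highest Sdhd at 165 FPKM, with a median of 51.0 FPKM, and 34 of 39 genes were at 10 FPKM or more in either group. FPKM is per exon length, so levels can be set side by side between genes, although the length counts all annotated exons and not the transcripts in use. The fewest fragments behind a value were 32, for Pdk2 in 1 library. Pdk2 had a mean under 1 FPKM and was the only gene of the 39 below the level for testing.

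**Figure D2:**
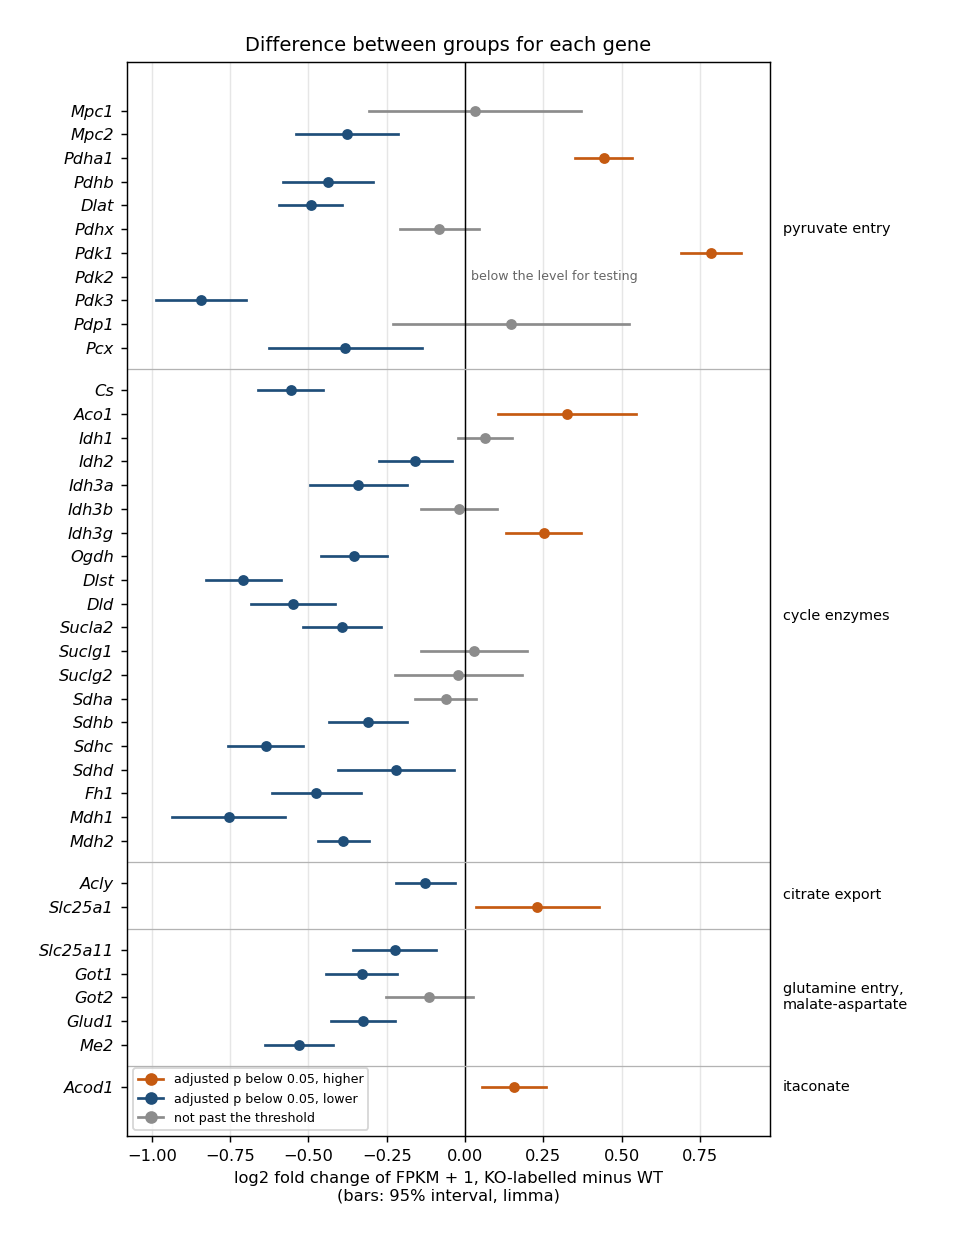
Log2 fold change of FPKM + 1, KO-labelled minus WT, for each gene by step. Points are limma estimates and bars their 95% intervals, in blue for the 23 genes that fell, orange for the 6 that rose and grey for the 9 that did not pass, with Pdk2 not tested.

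The kinases that switch off pyruvate dehydrogenase changed places. Pdk1, a kinase isoform known as a hypoxia-inducible gene, rose 1.76-fold. It measured 22.0, 22.6 and 22.3 FPKM in the WT libraries and 39.9, 38.6 and 39.1 FPKM in the KO-labelled ones. Pdk3, a further isoform, fell 1.85-fold, from 27.7, 24.6 and 25.3 FPKM to 13.3, 14.2 and 14.3 FPKM. The log2 fold changes were 0.79 ± 0.04 and -0.84 ± 0.06 (SE), with limma adjusted p of 4.53e-06 and 2.46e-05 (Benjamini-Hochberg), and these were the largest increase and the largest decrease among the 38 tested genes. Pdk2 was at 0.932, 0.762 and 0.809 FPKM in WT and at 0.623, 0.514 and 0.628 FPKM in the KO-labelled libraries, and Pdk4 was at 0 in all 6 libraries.

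Since the moves opposed each other, the summed level of the kinases changed little while its make-up turned over. The sum was 49.0 ± 1.42 FPKM in WT and 53.7 ± 0.446 FPKM in the KO-labelled libraries (SD, n = 3 each), without overlap. Pdk3 made up 52.7 ± 1.78% of the sum in WT and 26.0 ± 1.05% in KO-labelled libraries. Pdk1 went from 45.6 ± 1.90% to 73.0 ± 0.991%. Within a library the Pdk1/Pdk3 ratio was 0.794, 0.920 and 0.883 in WT and 2.99, 2.72 and 2.73 in KO-labelled cells, a 3.25-fold difference. Its exact two-sided permutation p of 0.1 is the smallest that 3 against 3 libraries can give, which holds for every ratio below. A ratio within a library does not depend on a scaling factor applied to that library.

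**Figure D3:**
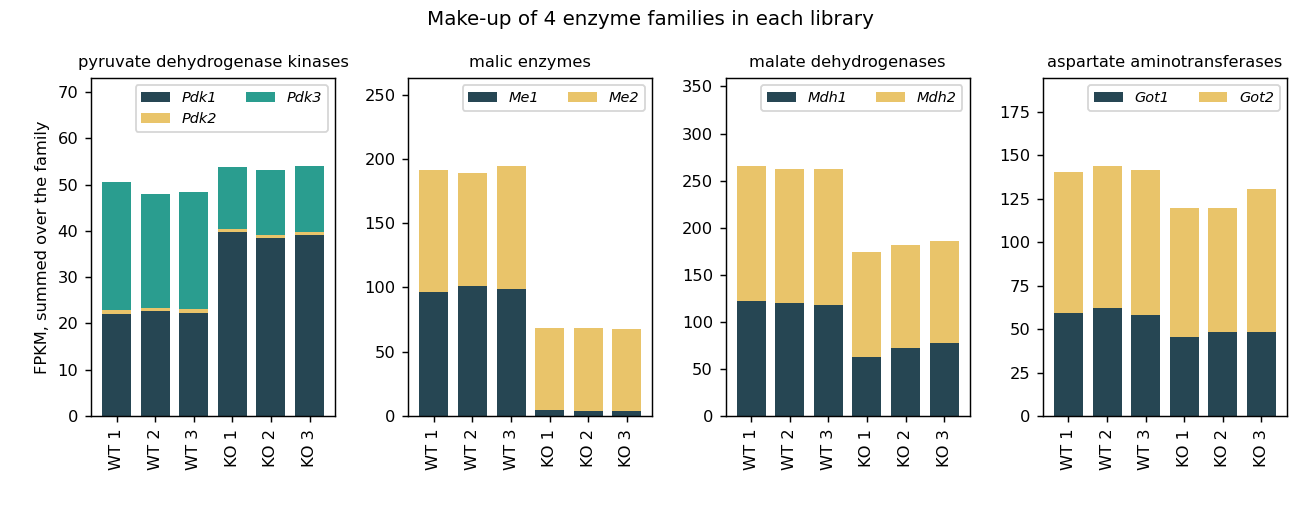
Stacked FPKM of the isoforms of 4 enzyme families in each library, from 0. The kinase bars are of similar height in both groups while Pdk3 gives way to Pdk1. The malic enzyme bars lose nearly all of Me1 in KO-labelled libraries, and the malate dehydrogenase and aspartate aminotransferase bars are lower there.

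The subunits of the pyruvate dehydrogenase complex moved apart. Pdha1, the X-linked alpha subunit of the decarboxylase and the target of the kinases, rose from 26.1, 26.1 and 25.8 FPKM to 35.6, 35.8 and 35.5 FPKM. Its partner Pdhb, the beta subunit, fell from 40.6, 42.1 and 40.5 FPKM to 27.8, 30.2 and 32.3 FPKM. Dlat, the acetyltransferase core, fell from 38.0, 38.5 and 36.8 FPKM to 25.8, 26.9 and 27.0 FPKM. In none of the 3 genes did the groups overlap, and the log2 fold changes were 0.44 ± 0.04, -0.44 ± 0.06 and -0.49 ± 0.04 (SE), with limma adjusted p of 6.21e-05, 0.000727 and 6.58e-05 (Benjamini-Hochberg). Pdhx, which anchors dihydrolipoamide dehydrogenase in the complex, averaged 17.0 ± 0.771 and 16.0 ± 0.555 FPKM and was not called, with a 95% interval of the log2 fold change from -0.21 to 0.04. The Pdha1/Pdhb ratio was 0.642, 0.619 and 0.636 in WT and 1.28, 1.19 and 1.10 in KO-labelled libraries, so that the order of the partner subunits was reversed in every library. Of the exon length of Pdha1, 16.1% overlaps exons of Map3k15 on the opposite strand, at 2.75 FPKM on average.

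The upstream sequences of these 4 genes are shown because each pair moved in opposite directions. They are given 5′ to 3′ on the gene's strand from the RefSeq windows of GRCm38.p6 (mm10), with annotated exons left out. The positions are chr2:71872974-71873223 (plus strand) for Pdk1, chrX:93832202-93832400 (minus strand) for Pdk3, chrX:160138431-160138680 (minus strand) for Pdha1 and chr14:8173026-8173242 (minus strand) for Pdhb. Capitals mark the letters GCGTG or ACGTG on either strand, the core of the sites that hypoxia-inducible factors bind, of which GCGTG was added after the sequences had been seen.
Pdk1: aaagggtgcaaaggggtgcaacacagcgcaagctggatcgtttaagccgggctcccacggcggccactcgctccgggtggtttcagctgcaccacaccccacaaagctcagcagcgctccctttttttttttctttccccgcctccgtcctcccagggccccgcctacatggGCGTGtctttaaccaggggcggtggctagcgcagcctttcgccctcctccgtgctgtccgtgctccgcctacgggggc
Pdk3: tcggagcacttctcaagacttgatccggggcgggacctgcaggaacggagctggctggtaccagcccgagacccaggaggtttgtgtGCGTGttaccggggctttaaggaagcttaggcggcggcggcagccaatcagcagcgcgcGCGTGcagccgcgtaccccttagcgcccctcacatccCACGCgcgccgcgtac
Pdha1: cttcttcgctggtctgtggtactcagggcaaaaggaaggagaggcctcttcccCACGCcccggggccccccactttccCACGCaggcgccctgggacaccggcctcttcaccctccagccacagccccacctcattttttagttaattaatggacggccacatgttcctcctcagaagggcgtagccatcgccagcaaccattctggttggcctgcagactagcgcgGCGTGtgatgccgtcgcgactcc
Pdhb: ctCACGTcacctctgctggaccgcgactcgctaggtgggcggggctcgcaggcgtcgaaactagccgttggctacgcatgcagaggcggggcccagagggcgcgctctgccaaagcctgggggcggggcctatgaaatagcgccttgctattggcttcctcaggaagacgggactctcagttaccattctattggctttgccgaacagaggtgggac
The core was found in all 4 stretches, in genes that rose and in genes that fell.

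Over the whole set, 35 of the 39 genes had RefSeq windows from 250 bases before to 50 bases after a start, and each motif was counted once per gene, on both strands. GCGTG was in 23 of the 35 genes (65.7%) and in 35.2% of all 27025 genes with windows. It was held by 4 of the 6 genes that rose and by 13 of the 20 that fell among those with a window. ACGTG was in 11 genes (31.4%, against 21.8%), and the E-box CACGTG, which contains it and is bound by Myc proteins, in 4 (11.4%, against 8.09%). The NRF1 motif, of a factor known for nuclear genes of mitochondria, was in 4 genes (11.4%, against 5.19%). AAGGTCA, bound by estrogen-related receptors, was in 3 (8.57%, against 5.38%). The STAT6 motif TTCNNNNGAA, which mediates IL-4 signals, was in 2 (5.71%, against 8.01%). These are matches of letters and not measured sites, and the genes compared were not matched for base composition or expression.

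The remaining genes of pyruvate entry were expressed at lower levels. Mpc2, a carrier subunit, fell from 7.36, 6.91 and 6.60 FPKM to 4.85, 5.04 and 5.50 FPKM (log2 fold change -0.38 ± 0.07, limma adjusted p = 0.00275, Benjamini-Hochberg). Mpc1, its partner, was at 4.27, 3.54 and 5.78 FPKM in WT and 4.53, 4.85 and 4.37 FPKM in the KO-labelled libraries, with full overlap. The value of Mpc1 is uncertain, because a processed pseudogene, Mpc1-ps, with at least 95% identity to an Mpc1 transcript over at least 80% of the shorter of the pair, was listed at 48.7 ± 5.43 FPKM in WT and 53.0 ± 2.91 FPKM in the KO-labelled libraries. It took 313 to 453 fragments per library against 153 to 268 for Mpc1, and how the counting divided fragments between them is not stated by the labels or notes. The Mpc1/Mpc2 ratio overlapped between groups (exact two-sided permutation p = 0.2) and carries the same doubt.

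Pcx, pyruvate carboxylase, which makes oxaloacetate from pyruvate and so refills the cycle, fell from 7.91, 6.84 and 8.91 FPKM to 6.11, 6.10 and 5.20 FPKM (log2 fold change -0.38 ± 0.10, limma adjusted p = 0.0154, Benjamini-Hochberg). Set against Pdha1, which serves the other fate of mitochondrial pyruvate, the Pcx/Pdha1 ratio was 0.304, 0.262 and 0.346 in WT and 0.172, 0.170 and 0.146 in KO-labelled cells, 1.86-fold lower. Pdp1, a phosphatase that reactivates pyruvate dehydrogenase, averaged 2.20 ± 0.623 and 2.52 ± 0.434 FPKM and was not called, with an interval from -0.23 to 0.52. Of the 10 tested genes of this step, 5 fell and 2 rose, where 30.2% of all tested genes fell and 30.6% rose.

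Around the cycle 13 of 20 genes fell, 2 rose and 5 were not called, at a median log2 fold change of -0.33. Among all 10843 tested genes 30.2% fell and 30.6% rose, at a median of 0.01. Cs, citrate synthase, which commits acetyl-CoA to the cycle, was at 91.3 to 93.3 FPKM in WT and 60.7 to 65.6 FPKM in the KO-labelled libraries (log2 fold change -0.56 ± 0.04, limma adjusted p = 3.95e-05, Benjamini-Hochberg). Aco1, the cytosolic aconitase that is also an iron-sensing RNA-binding protein, rose from 18.3 ± 2.03 to 23.2 ± 1.85 FPKM (SD, n = 3), with a limma adjusted p of 0.0196 (Benjamini-Hochberg), which was 0.0520 without KO replicate 3 and between 0.00270 and 0.0520 over the alternatives.

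The isocitrate dehydrogenases differed by isoform and by subunit. Idh1, the cytosolic NADPH-producing isoform, was at 125, 121 and 121 FPKM in WT and 126, 129 and 129 FPKM in the KO-labelled libraries. It did not pass (limma adjusted p = 0.169, Benjamini-Hochberg), but passed as higher after rescaling to TPM (adjusted p = 0.0167) and after quantile normalization (adjusted p = 0.00275). Idh2, its mitochondrial counterpart, was at 92.5, 100.7 and 97.3 FPKM in WT and at 82.9, 88.1 and 88.7 FPKM in the KO-labelled libraries. It fell by 0.16 ± 0.05 on the log2 scale (limma adjusted p = 0.0268, Benjamini-Hochberg), a call that was lost under 6 of 13 alternatives, 4 of which left out 1 library (WT replicate 2 or 3, limma adjusted p = 0.0932 and 0.0762, or KO replicate 1 or 2, adjusted p = 0.0680 and 0.0522). The adjusted p ran from 0.0100 to 0.439 over all 13. The Idh1/Idh2 ratio was 1.27 in WT and 1.48 in KO-labelled libraries on average, without overlap.

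The NAD-dependent isocitrate dehydrogenase is built of 3 kinds of subunit, and these did not move as a block. Idh3a, the catalytic subunit, fell from 45.0, 44.7 and 46.1 FPKM to 33.0, 34.8 and 39.1 FPKM (limma adjusted p = 0.00345, Benjamini-Hochberg). Idh3b was at 44.6, 42.4 and 47.5 FPKM in WT and 43.5, 45.0 and 44.0 FPKM in the KO-labelled libraries, where the groups overlapped and the interval of the log2 fold change ran from -0.14 to 0.10. Idh3g, a regulatory subunit, rose from 62.9 ± 1.78 to 75.1 ± 3.88 FPKM (SD, n = 3), by 0.25 ± 0.05 on the log2 scale (limma adjusted p = 0.00429, Benjamini-Hochberg). The Idh3a/Idh3b ratio went from a mean of 1.01 to 0.804, without overlap, and Idh2/Idh3a from 2.14 to 2.44.

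All 3 components of the oxoglutarate dehydrogenase complex fell. Dlst, its succinyltransferase core, fell 1.67-fold, from 30.2, 28.4 and 29.3 FPKM to 17.5, 18.3 and 16.8 FPKM. Ogdh, the decarboxylase that acts on oxoglutarate, fell less, from 53.3, 56.1 and 52.4 FPKM to 41.1, 41.5 and 43.2 FPKM. Dld, the dehydrogenase shared with the pyruvate dehydrogenase complex, fell from 80.1 ± 2.86 to 54.5 ± 3.41 FPKM (SD, n = 3). Their log2 fold changes were -0.71 ± 0.05, -0.35 ± 0.04 and -0.55 ± 0.06, with limma adjusted p of 2.46e-05, 0.000457 and 0.000157 (Benjamini-Hochberg). The Ogdh/Dlst ratio was 1.77, 1.98 and 1.79 in WT and 2.36, 2.26 and 2.57 in KO-labelled libraries, without overlap.

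Succinyl-CoA ligase, which makes ATP or GTP according to its beta subunit, had 1 of its 3 genes past the test. Sucla2, the ATP-forming beta subunit, fell from 20.2, 21.3 and 22.5 FPKM to 16.1, 16.0 and 15.9 FPKM (limma adjusted p = 0.000578, Benjamini-Hochberg). Suclg2, the GTP-forming one, was at 23.0, 23.6 and 26.0 FPKM in WT and at 21.2, 26.3 and 24.2 FPKM in the KO-labelled libraries, with overlap and an interval of the log2 fold change from -0.22 to 0.18. A pseudogene that is nearly identical to Suclg2, Gm15163, was listed at 6.20 ± 1.40 and 8.38 ± 2.22 FPKM, so part of the Suclg2 signal could be divided between them. Suclg1, the alpha subunit that both forms share, was at 30.7 ± 2.76 and 31.3 ± 1.41 FPKM and overlapped. The share of Sucla2 in the summed beta subunits was 46.8 ± 0.528% in WT and 40.2 ± 2.70% in KO-labelled libraries.

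Succinate dehydrogenase, which is also complex II of the respiratory chain, has a flavin-bearing subunit (Sdha), an iron-sulfur subunit (Sdhb) and membrane anchors (Sdhc, Sdhd). Sdhc fell most, from 68.4, 69.7 and 69.9 FPKM to 44.1, 41.8 and 46.9 FPKM, by 0.64 ± 0.05 on the log2 scale (limma adjusted p = 4.29e-05, Benjamini-Hochberg). Sdhb fell from 67.6, 74.8 and 70.1 FPKM to 58.7, 57.4 and 54.6 FPKM (limma adjusted p = 0.00190, Benjamini-Hochberg). Sdha was at 71.4, 73.8 and 74.4 FPKM in WT and 71.5, 67.7 and 71.0 FPKM in the KO-labelled libraries, with overlap. The catalytic flavoprotein and the anchor Sdhc, at similar levels in WT, were thus apart in every KO-labelled library. The Sdha/Sdhb ratio went from a mean of 1.03 to 1.23, without overlap. Sdhd, the highest of the 39 genes, was at 165 ± 12.7 and 141 ± 11.5 FPKM (SD, n = 3), and its decrease passed (limma adjusted p = 0.0427, Benjamini-Hochberg) but was kept in only 4 of 13 alternatives. Without WT replicate 1, 2 or 3 its p was 0.0560, 0.0675 and 0.129, and without KO replicate 2 or 3 it was 0.0743 and 0.0867, within 0.0112 to 0.693 over all 13.

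Fumarase and the mitochondrial malate dehydrogenase close the cycle, and both genes fell, as did that of the cytosolic malate dehydrogenase. Mdh1, the cytosolic malate dehydrogenase of the malate-aspartate shuttle, fell 1.69-fold, from 122.0, 120.3 and 117.8 FPKM to 62.8, 72.7 and 77.4 FPKM (log2 fold change -0.75 ± 0.08, limma adjusted p = 0.000141, Benjamini-Hochberg). Mdh2, the mitochondrial enzyme of the cycle, fell less, from 143.9, 142.3 and 144.4 FPKM to 111.1, 108.9 and 108.2 FPKM (log2 fold change -0.39 ± 0.03, limma adjusted p = 7.45e-05, Benjamini-Hochberg). Fh1, fumarase, was at 89.8 ± 3.47 FPKM in WT and 64.4 ± 4.50 FPKM in the KO-labelled libraries (adjusted p = 0.000454 by limma and Benjamini-Hochberg). The 3 WT libraries lay close together for Mdh1, while KO replicate 1 was lower than the other KO-labelled ones. The share of Mdh1 in the malate dehydrogenase sum was 45.5 ± 0.542% in WT and 39.3 ± 2.87% in KO-labelled libraries, and the sum itself was 264 ± 2.04 and 180.4 ± 5.98 FPKM. Mdh1 lies at chr11:21556787-21572367 and Dlst at chr12:85110833-85134845 (mm10).

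**Figure D4:**
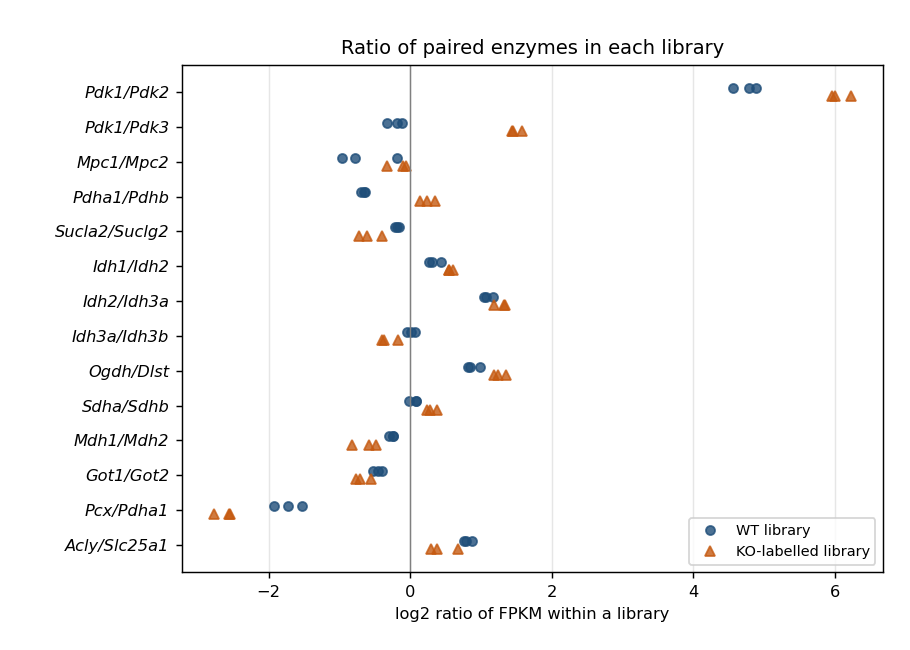
Log2 ratio of FPKM of 14 enzyme pairs within each library, WT as blue circles and KO-labelled as orange triangles, with 0 marking equal levels. In 13 pairs the groups do not overlap, Mpc1/Mpc2 being the exception. Pdk1/Pdk3 and Pdha1/Pdhb lie below the line of equal levels in every WT library and above it in every KO-labelled one. The WT libraries of Idh3a/Idh3b and Sdha/Sdhb lie on both sides of that line.

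The ratios were compared for 14 pairs. In 13 the WT and KO-labelled values did not overlap. For these the exact two-sided permutation p was 0.1, or 0.108 after Benjamini-Hochberg adjustment over the 14 pairs, so no pair can pass 0.05 in this design. The pairs were chosen with earlier results known, and the share of other gene pairs without overlap was not measured. Of all tested genes taken singly, 33.4% were lower without overlap and 34.1% higher. The widest gap was Pdk1/Pdk3, at 1.70 ± 0.08 (SE) on the log2 scale, followed by Pdk1/Pdk2 at 1.32 ± 0.13, where Pdk2 rested on 32 to 63 fragments per library. Pdha1/Pdhb differed by 0.91 ± 0.07 and Pcx/Pdha1 by -0.90 ± 0.14. The other pairs without overlap differed by less than 0.40 in size.

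For export of citrate to the cytosol, the carrier and the enzyme moved in opposite directions by small amounts. Slc25a1, the citrate carrier, was at 49.1, 52.3 and 51.6 FPKM in WT and 66.7, 61.1 and 53.1 FPKM in the KO-labelled libraries, with KO replicate 3 just above the highest WT library. Acly, which cleaves citrate into acetyl-CoA for lipids and histone acetylation, was at 89.7, 88.9 and 89.6 FPKM in WT and 81.7, 79.2 and 84.5 FPKM in the KO-labelled libraries. The increase of Slc25a1 (0.23 ± 0.08, limma adjusted p = 0.0454) and the decrease of Acly (-0.13 ± 0.04, limma adjusted p = 0.0281, Benjamini-Hochberg) were kept in 6 and 5 of 13 alternatives. Slc25a1 was lost without any 1 library other than KO replicate 3 (p from 0.0824 to 0.131), and Acly likewise (p from 0.0535 to 0.0950). Over all 13 alternatives p ran from 0.00310 to 0.131 for Slc25a1 and from 0.0106 to 0.868 for Acly.

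Among the 5 genes of glutamine entry and malate-aspartate exchange, 4 fell and none rose. The shares over all tested genes were 30.2% lower and 30.6% higher. Me2, a mitochondrial malic enzyme that turns malate into pyruvate, fell from 94.8, 87.7 and 96.0 FPKM to 63.5, 64.5 and 63.7 FPKM (log2 fold change -0.53 ± 0.05, limma adjusted p = 6.71e-05, Benjamini-Hochberg). Glud1, glutamate dehydrogenase, which yields oxoglutarate, fell from 96.1, 89.9 and 91.6 FPKM to 75.9, 72.6 and 72.4 FPKM (limma adjusted p = 0.000595, Benjamini-Hochberg). Got1, the cytosolic aspartate aminotransferase, fell from 59.3, 62.0 and 58.0 FPKM to 45.3, 48.4 and 48.3 FPKM (limma adjusted p = 0.000893, Benjamini-Hochberg). In these 3 genes every KO-labelled library was below every WT library. Slc25a11, the oxoglutarate-malate carrier, fell from 55.5, 62.0 and 57.5 FPKM to 50.9, 47.5 and 50.9 FPKM (limma adjusted p = 0.0109, Benjamini-Hochberg), and did not pass after rescaling to TPM (adjusted p = 0.0686) or quantile normalization (adjusted p = 0.0987), with adjusted p from 0.00450 to 0.0987 over the 13 alternatives. Got2, the mitochondrial aminotransferase, was at 80.9, 81.9 and 83.5 FPKM in WT and 74.3, 71.3 and 82.2 FPKM in the KO-labelled libraries. It did not pass (limma adjusted p = 0.131, Benjamini-Hochberg), but passed as lower without KO replicate 3 (-0.17, limma adjusted p = 0.00953, the lowest of a range that reached 0.882). The Got1/Got2 ratio went from a mean of 0.728 to 0.624, without overlap.

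Acod1, which makes itaconate from aconitate and is known for its induction in inflammatory macrophages, was at a moderate level in both groups. It lies at chr14:103046977-103056573 (mm10) and was at 44.1, 40.9 and 43.1 FPKM in WT and 47.3, 47.9 and 47.7 FPKM in the KO-labelled libraries. The groups did not overlap, and the increase of 0.16 ± 0.04 on the log2 scale passed (limma adjusted p = 0.0178, Benjamini-Hochberg). It was lost without WT replicate 2 (limma adjusted p = 0.0606), without KO replicate 2 (limma adjusted p = 0.0558) and with the replicate numbers as a block (limma adjusted p = 0.0515), within 0.00383 to 0.0606 over the 13 alternatives.

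Some neighbouring genes moved by more than any of the listed genes. The 49 neighbouring genes covered transport of lactate, pyruvate and dicarboxylates, glutamine and proline metabolism, lipoylation and assembly factors, and further isoforms. Of these, 33 could be tested: 13 fell (39.4%) and 9 rose (27.3%), with a median log2 fold change of -0.12. In the same fit 30.2% of all 10843 tested genes fell and 30.6% rose. After rescaling to TPM 14 neighbouring genes rose, where 34.4% of all tested genes rose. Past 2-fold on the log2(FPKM + 1) scale were 6 of the 33, against none of the 38 listed genes and 1465 of all 10843 tested genes. Slc16a3, the lactate exporter MCT4, fell 37.3-fold, from 94.4 ± 3.23 to 2.53 ± 0.154 FPKM (SD, n = 3), with KO-labelled values of 2.69, 2.51 and 2.39 FPKM. Me1, the cytosolic malic enzyme that makes NADPH, fell 22.8-fold, from 96.5, 101.5 and 98.7 FPKM to 4.74, 4.26 and 3.99 FPKM. With Me3 at 0 in every library, the share of Me2 in the malic enzymes went from 48.4 ± 1.77% to 93.7 ± 0.535%, although Me2 itself fell.

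Glul, glutamine synthetase, which draws glutamate away from the cycle, rose 4.41-fold, from 8.11, 9.15 and 9.07 FPKM to 39.4, 37.9 and 38.8 FPKM (log2 fold change 2.02 ± 0.06, limma adjusted p = 2.75e-07, Benjamini-Hochberg). Gpt, an alanine aminotransferase, rose 1.79-fold, from 3.34, 3.07 and 3.96 FPKM to 6.51, 6.20 and 5.85 FPKM. Gpt2, its more abundant mitochondrial isoform in WT, named after its values were seen, fell 2.20-fold from 14.5 ± 0.438 to 6.60 ± 0.621 FPKM (SD, n = 3; log2 fold change -1.03 ± 0.07, limma adjusted p = 2.14e-05). Clybl, a mitochondrial enzyme that clears citramalyl-CoA, rose from 6.87, 8.68 and 9.89 FPKM to 13.2, 13.6 and 14.8 FPKM. Slc25a10, the dicarboxylate carrier, fell 2.72-fold, from 31.3, 33.4 and 33.2 FPKM to 13.6, 12.2 and 10.1 FPKM. Pck2, which draws oxaloacetate into phosphoenolpyruvate, fell 1.60-fold from 16.2 ± 1.07 to 10.1 ± 0.456 FPKM.

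**Figure D5:**
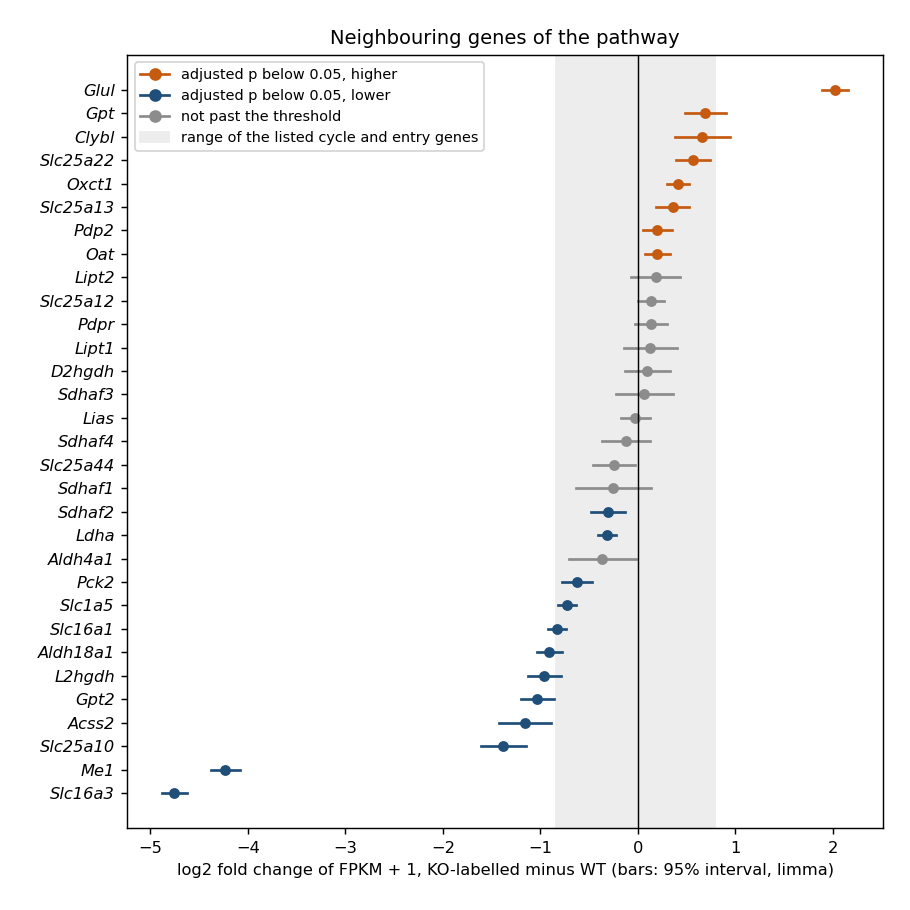
Log2 fold change of FPKM + 1, KO-labelled minus WT, of tested neighbouring genes, as limma estimates with 95% intervals, orange for genes that rose, blue for genes that fell and grey for the rest. The grey band is the range of the 38 listed genes, from -0.84 to 0.79, and Glul at 2.02, Me1 at -4.23 and Slc16a3 at -4.76 lie far outside it.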

How the data were processed

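Poly(A) RNA of 6 libraries was available as 1 table of FPKM per library, the unit in which the authors deposited the values. Alignment and counting tools named in the submitters' processing notes are HISAT2 2.0.5 with featureCounts 1.5.0-p3, on mm10. Annotation release, strand setting and multi-mapping treatment were not given in the sources used here. Symbols and exon lengths came from GENCODE M21, which matched 54495 gene identifiers and left 37 unmatched. FPKM times exon length fell on steps of 1 fragment, within 0.1, for 97.8% to 98.0% of values up to 200 fragments, which gave the depth. Fragments without molecular identifiers are not independent molecules, and depth covers counting error only.

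Log2(FPKM + 1) was fitted in limma 3.58.1 (R 4.3.3) over the genes that averaged 1 FPKM or more, with Benjamini-Hochberg adjustment. This scale understates changes of low genes. Ratios within a library were compared by exact permutation (scipy 1.17.1). Near-identical copies were sought with BLAST+ 2.17.0+. The members, lists, pairs and alternatives were chosen with earlier results of these data known. Values in every library are given for genes of the ratio pairs and the 3 largest changes of each step. The neighbours named by rule are the 3 with the largest increase and the 3 with the largest decrease, with Pck2 and Pdk4 besides. Outside that rule, Gpt2 was named after its values were seen, Me3 as a malic enzyme and Ldha for its change under quantile normalization. Some neighbouring genes are counted but not reported here by name. The symbol Nnt matched more than 1 identifier and was left out. The fit was also run on simulated data with few changed genes and a fixed scatter, whereas 60.8% of tested genes were called here. That run therefore does not give the error rate of these calls. The groups were also fitted with the shared replicate numbers as a block, although the labels do not say that these numbers pair the libraries.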

Additional observations from a re-analysis of the deposited data

How the results depend on the processing

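Over 13 alternatives, 19 of the 23 genes that fell, 3 of the 6 that rose and 7 of the 9 others kept their call wherever they were tested (12 alternatives for Mpc1 and Pdp1, which fall under the filter at 5 FPKM). Leaving out 1 library at a time gave 4 to 5 genes higher and 20 to 23 lower, 5835 to 6446 calls over all genes, and 7 to 9 neighbouring genes higher and 13 to 14 lower. Rescaling to TPM gave 14 neighbouring genes higher, against 9. It moved the median of all tested genes to 0.11, and lowered the share of decreases among all calls from 49.6% to 39.6%. After quantile normalization Ldha was at 0.0038 (adjusted p = 0.932), against -0.32. With the replicate block, 6194 genes were called over all genes, and 4 of the listed genes rose and 21 fell. Deviations of same-numbered libraries correlated at -0.03, 0.05 and -0.03, and not every library correlated best with its own number, so the numbers are not taken as pairs. Without the 5 genes that have a near-identical copy, an alternative chosen after seeing the data, 6 rose and 21 fell. Sign changes of values that passed in neither fit are not counted as reversals. The cause of each change of call was not tested. With 3 libraries a group, exact tests cannot go below 0.1, and Pdk2 is limited by its 32 to 63 fragments.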
